A study of Mus musculus with 32 samples.

Results

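The 10 genes described here encode NF-kB transcription factor subunits and proteins that regulate them: Nfkb1, Nfkb2, Rela, Relb, Nfkbia, Nfkbie, Nfkbiz, Bcl3, Tnfaip3 and Birc3. They were chosen by name as parts of 1 pathway, and all 10 were among the 11818 genes of the count table. Their RNA was measured by bulk RNA sequencing in organoid co-cultures of mouse lung, in which primary epithelial cells (CD45-/CD31-/Epcam+, from naive adult C57BL/6 J mice) were grown in Matrigel with growth-arrested CCL206 cells, a fibroblast line of mouse lung. Each culture was treated for 72 h and then separated again with Epcam beads into Epcam+ cells and CCL206 fibroblasts. The 32 libraries form 8 groups of 4, which are the 2 cell fractions under vehicle, EVs (extracellular vesicles of the human fetal lung fibroblast line MRC5), SFs (the soluble factors of the same MRC5 medium) or OGN (recombinant human osteoglycin, a small proteoglycan, at 10 µg/ml). Replicates 1 to 4 are 4 mice. In the fibroblast fraction the mouse number names the co-culture, since every fibroblast library comes from the same cell line. The sex of the 4 mice was not given in the sources used here, and EVs and SFs were each used at a single concentration.

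NF-kB factors are dimers of Rel family proteins. In resting cells they are held in the cytoplasm by inhibitor of kappa B (IkB) proteins, and receptors for TNF, IL-1 or bacterial products activate kinases that mark the inhibitors for destruction, so that the dimers enter the nucleus. Many of their target genes encode their own inhibitors and several of the subunits, which closes a feedback loop, and in lung epithelium and fibroblasts the pathway is known for the induction of chemokines and acute-phase proteins.

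The members differ in their role within this loop. Nfkb1 and Nfkb2 encode the precursors p105 and p100, which are processed to p50 and p52, and Rela and Relb encode subunits that carry an activation domain. Nfkbia and Nfkbie encode the cytoplasmic inhibitors IkB alpha and IkB epsilon. Nfkbiz and Bcl3 encode atypical IkB proteins that act in the nucleus on bound dimers. Tnfaip3 encodes A20, a ubiquitin-editing enzyme that shuts off signaling below the receptors, and Birc3 encodes cIAP2, a ubiquitin ligase of the TNF receptor complex.

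Promoter windows of RefSeq (GRCm38.p6, 250 bases before to 50 bases after an annotated start) were found for 7 of the 10 members. Nfkb1, Relb and Nfkbiz had no window in the table used. The NF-kB consensus motif, a motif of 10 letters searched on both strands, was present in at least 1 window of 5 of these 7 genes (Nfkb2, Nfkbia, Nfkbie, Bcl3 and Tnfaip3) and in none of Rela or Birc3. For comparison, it was present in 4.51% of all 32851 windows and in 6.21% of the 9166 genes of the count table that had a window. A match describes the letters only and is not evidence of a bound site. The upstream 250 bases are shown for the 3 members with a window whose level changed with a treatment below, with matches to the consensus in capitals, read 5′ to 3′ along the strand of the gene. They lie at chr12:55492648-55492897 (Nfkbia, minus strand), chr17:45555450-45555699 (Nfkbie, plus strand) and chr10:19015411-19015660 (Tnfaip3, minus strand).
Nfkbia: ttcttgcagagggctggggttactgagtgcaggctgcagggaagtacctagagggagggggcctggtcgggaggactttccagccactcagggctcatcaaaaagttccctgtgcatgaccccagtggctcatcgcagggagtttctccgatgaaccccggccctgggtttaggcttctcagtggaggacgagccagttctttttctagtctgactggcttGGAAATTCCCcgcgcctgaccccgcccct
Nfkbie: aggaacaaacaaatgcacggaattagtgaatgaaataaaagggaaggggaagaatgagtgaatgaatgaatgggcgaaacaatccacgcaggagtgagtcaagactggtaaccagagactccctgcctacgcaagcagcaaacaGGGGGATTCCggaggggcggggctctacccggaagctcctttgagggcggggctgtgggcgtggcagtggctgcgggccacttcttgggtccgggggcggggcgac
Tnfaip3: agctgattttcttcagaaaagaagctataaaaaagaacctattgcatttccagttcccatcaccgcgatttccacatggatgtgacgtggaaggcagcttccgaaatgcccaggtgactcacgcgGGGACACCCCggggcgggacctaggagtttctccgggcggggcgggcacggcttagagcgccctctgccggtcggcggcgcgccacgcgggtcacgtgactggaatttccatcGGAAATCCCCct

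The match of Nfkbia began 29 bases before the start and that of Nfkbie 106 bases before it. Tnfaip3 held 2 matches, beginning 125 and 12 bases before the start, the second of them reading GGGGATTTCC on the opposite strand. Nfkb2 held matches in all 3 of its windows, where 2 of them overlapped each other.

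The gene bodies, on the same build, are Nfkb1 at chr3:135584655-135691969, Nfkb2 at chr19:46300994-46312400, Rela at chr19:5637442-5648134, Relb at chr7:19606217-19629438, Nfkbia at chr12:55489409-55492647, Nfkbie at chr17:45555700-45563169, Nfkbiz at chr16:55811375-55838954, Bcl3 at chr7:19808462-19822824, Tnfaip3 at chr10:19000910-19015410 and Birc3 at chr9:7847468-7873205. Whether counting used the strand is not stated in the sources used here, and exons of Nfkb2 overlap those of the antisense gene 4833438C02Rik by 1081 bases. That gene lay between 2.57 and 11.2 CPM (counts scaled to library size, as defined below) in all libraries, against 153 CPM or more for Nfkb2. Exons of Nfkb2 also overlap those of Psd, on the opposite strand, by 1933 bases. Genes on the opposite strand overlap exons of Nfkb1, Rela, Nfkbia, Bcl3 and Tnfaip3 as well, by 110 to 314 bases. Psd and these genes were not in the count table, so their levels are not known here.

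Library totals ran from 1805914 to 17675454 counts with a median of 5901652, and the members held between 27 and 4098 counts in a library, so that all 10 passed the filter on low counts in every comparison. Levels are given as CPM, scaled by TMM over all 32 libraries. The fractions bore the markers of their labels. In the vehicle groups the summed level of 10 markers of alveolar type 2 (AT2) cells was 9570 to 16000 CPM in Epcam+ cells and 1870 to 4800 CPM in fibroblasts, and that of 9 fibroblast markers was 2240 to 3110 CPM in Epcam+ cells and 11500 to 12900 CPM in fibroblasts. Markers of each cell type were thus also measured in the other fraction, at a lower level. The EV-treated fibroblast libraries stood apart in their trend over transcript length. For each library, a gene's deviation from the mean of the vehicle libraries of its fraction, itself left out, was rank-correlated with transcript length. The correlation was -0.584 in mouse 2 and -0.623 in mouse 4, and -0.287 and -0.365 in mice 1 and 3. In all libraries of the other 7 groups it lay between -0.289 and 0.331. For a treated library this deviation also holds any effect of the treatment. Counts of members in the fibroblast comparisons are given below with and without the EV-treated libraries of mice 2 and 4.

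The question of the vehicle cultures is how the loop was composed in each cell fraction with vehicle alone. In Epcam+ cells Nfkbia was the most abundant member per transcript length, at 94.0 ± 19.9 CPM per kb (SD, n = 4), and its libraries did not overlap those of the next member. Rela followed at 29.0 ± 1.70, Nfkb1 at 26.9 ± 5.23, Nfkb2 at 25.6 ± 1.41, Nfkbiz at 19.99 ± 7.65, Bcl3 at 16.03 ± 2.53, Relb at 12.5 ± 1.94, Nfkbie at 10.4 ± 1.54, Tnfaip3 at 7.45 ± 2.61 and Birc3 at 5.64 ± 0.423 CPM per kb. From Rela to Birc3 each neighbor in this order overlapped the next over the 4 mice, so the order among them is not resolved pair by pair.

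In CCL206 fibroblasts Nfkbia again came first, at 84.6 ± 17.0 CPM per kb (SD, n = 4), but here it overlapped Nfkbiz, at 65.8 ± 27.9. Rela (49.3 ± 2.65) and Nfkb2 (46.8 ± 1.81) overlapped each other and stood above Nfkbie (32.6 ± 2.45). Bcl3 was at 26.8 ± 3.98, Nfkb1 at 21.8 ± 0.801, Relb at 18.7 ± 1.77, Tnfaip3 at 11.4 ± 2.25 and Birc3 at 6.61 ± 0.817 CPM per kb. Nfkbiz overlapped Rela, Nfkbie overlapped Bcl3 and Bcl3 overlapped Nfkb1. The 4 lowest members, from Nfkb1 down, did not overlap one another.

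Between the vehicle fractions 8 of the 10 members differed, against 71.4% of all genes tested (edgeR quasi-likelihood test with mouse in the model, adjusted p under 0.05). As the background is that high, the count itself says little about these genes, and the sizes are of more use. Of the 8, 7 were lower in Epcam+ cells and Nfkb1 was higher. The median of the 10 log2 differences was -0.71, against 0.00 over all genes. Nfkbiz, which encodes a nuclear IkB protein, and the cytoplasmic inhibitor gene Nfkbie had the largest differences. In these bulk fractions fewer cells of a type and less RNA of a gene per cell cannot be told apart.

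Nfkbiz was at 104, 110.3, 58.6 and 49.97 CPM in the vehicle Epcam+ cells of mice 1 to 4 and at 361, 367, 161 and 176 CPM in the fibroblasts. Every fibroblast library was above every Epcam+ library, and within both fractions mice 1 and 2 lay far above mice 3 and 4. The log2 difference of Epcam+ cells against fibroblasts was -1.71 ± 0.083 (SE, adjusted p = 2e-08). Nfkbie was at 22.02, 22.8, 29.1 and 28.8 CPM in Epcam+ cells and at 78.8, 77.3, 75.7 and 89.0 CPM in fibroblasts, again without overlap, with a log2 difference of -1.67 ± 0.111 (adjusted p = 1.9e-07).

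The subunits Nfkb2 (-0.89 ± 0.070), Rela (-0.77 ± 0.078) and Relb (-0.60 ± 0.105), the nuclear protein Bcl3 (-0.76 ± 0.144) and Tnfaip3 (-0.65 ± 0.106) were also lower in Epcam+ cells, with adjusted p between 7.3e-07 and 0.00063. Nfkb1 was the exception, with a log2 difference of 0.27 ± 0.092 (adjusted p = 0.021), a call that was lost without mouse 2 or without mouse 3. Nfkbia (0.14 ± 0.067, adjusted p = 0.086) and Birc3 (-0.25 ± 0.128, adjusted p = 0.10) did not pass the test. These are differences between a primary cell and a cell line, and the part of the other fraction's markers in them was not tested.

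**Figure D1:**
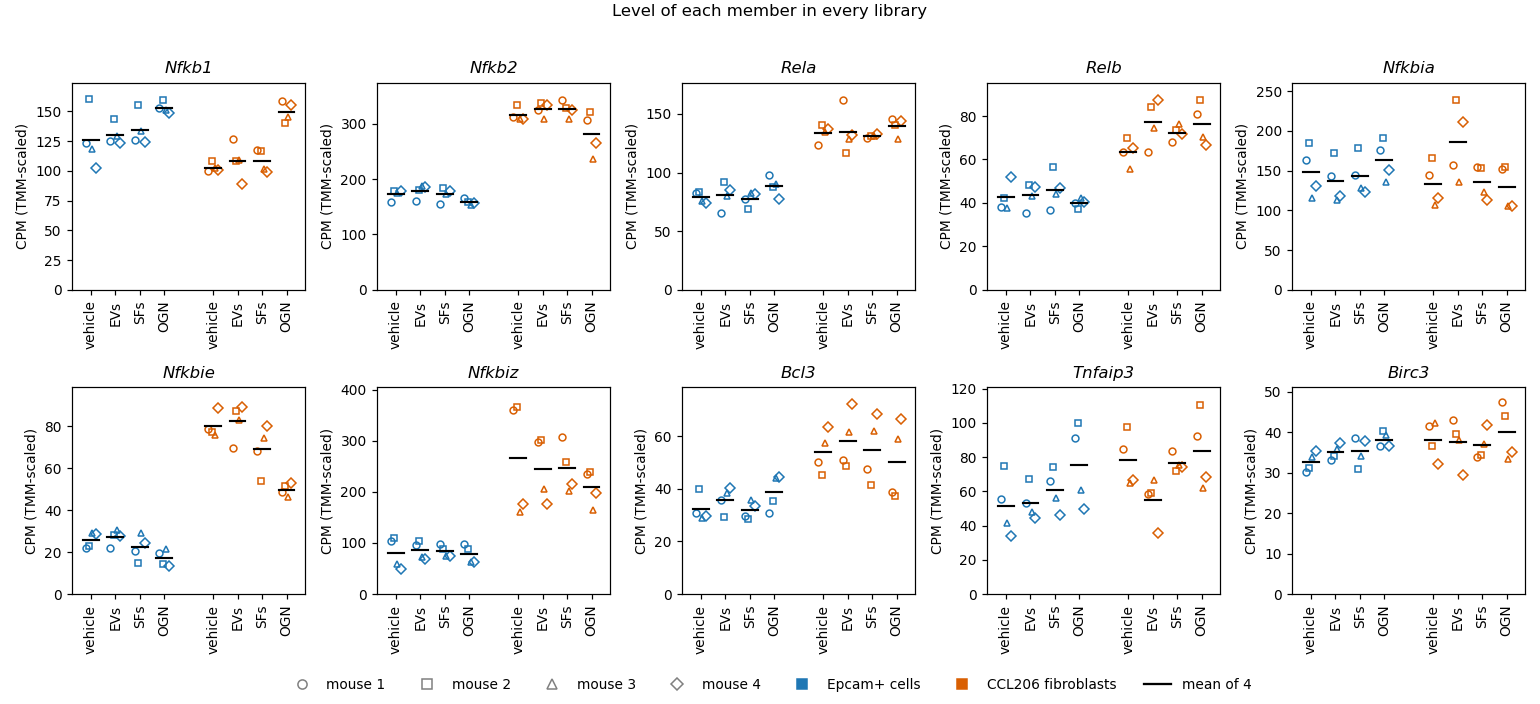
Level of each of the 10 members in all 32 libraries, in TMM-scaled CPM on linear axes that start at 0. Each symbol is 1 library, the symbol shape is the mouse, blue is the Epcam+ fraction and orange the fibroblast fraction, and the black bar is the mean of 4. Nfkb1 rises and Nfkbie falls in the OGN-treated fibroblasts, whose libraries sit apart from those of vehicle, while most other members overlap between treatments.

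With OGN in fibroblasts 2 of the 10 members passed the test, against 4.56% of all genes: Nfkb1 rose and Nfkbie fell. The background share depended on the EV-treated fibroblasts, which enter the estimate of spread: without those of mice 2 and 4 it was 13.8% with 2 members called, and without any EV-treated library it was 15.1% with 3 members called, the third being Relb (0.26, adjusted p = 0.0398). The median log2 fold change of the 10 was 0.01, against -0.01 over all genes. In Epcam+ cells 1 of 10 passed, against 2.7% of all genes, and that was Tnfaip3, which rose. There the median was 0.15, against 0.00 over all genes. The OGN comparisons and those of EVs and SFs below share their vehicle libraries.

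Nfkb1, the p105/p50 precursor, was at 99.8, 108, 102 and 100.4 CPM in the vehicle fibroblasts of mice 1 to 4 and at 159, 140.2, 145 and 156 CPM in the OGN-treated ones. All OGN libraries lay above all vehicle, EV (88.9 to 127 CPM) and SF (98.8 to 118 CPM) libraries of the fraction. The log2 fold change was 0.55 ± 0.096 (SE, adjusted p = 0.0022), and the call was kept under every alternative tried. In Epcam+ cells Nfkb1 was at 123, 161, 119 and 103 CPM with vehicle and at 153, 159.8, 152 and 149 CPM with OGN. The groups overlapped through mouse 2, which was already high with vehicle, 3 of 4 mice were higher with OGN, and the log2 fold change of 0.29 ± 0.081 did not pass (adjusted p = 0.062). DESeq2 gave an adjusted p of 0.020 for the same gene.

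Nfkbie, the IkB epsilon gene, went the other way. In vehicle fibroblasts it was at 78.8, 77.3, 75.7 and 89.0 CPM, and with OGN at 48.6, 51.6, 46.4 and 53.0 CPM. The groups were far apart, and the log2 fold change was -0.68 ± 0.110 (adjusted p = 0.0011), kept under every alternative. In Epcam+ cells it was at 22.02, 22.8, 29.1 and 28.8 CPM with vehicle and at 19.7, 14.3, 21.4 and 13.4 CPM with OGN. All 4 mice were lower with OGN, by -0.16 in mouse 1 to -1.08 in mouse 4 on the log2 scale, and the groups did not overlap. The log2 fold change of -0.56 ± 0.160 missed the threshold (adjusted p = 0.067, and 0.023 by DESeq2).

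Tnfaip3, which encodes A20, was at 55.5, 75.0, 41.3 and 34.1 CPM in vehicle Epcam+ cells and at 91.3, 100.1, 60.5 and 49.7 CPM with OGN. Each of the 4 mice was higher with OGN than with vehicle, while the spread between mice made the groups overlap. The log2 fold change within mice was 0.55 ± 0.102 (adjusted p = 0.0022). The call needed the pairing by mouse: without it the adjusted p was 0.31, and without mouse 1 it was 0.079 at a log2 fold change of 0.49. In fibroblasts the values overlapped, at 84.8, 97.4, 64.7 and 66.9 CPM with vehicle and 92.2, 110.3, 62.1 and 68.5 CPM with OGN (log2 fold change 0.08 ± 0.157, adjusted p = 0.89).

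None of the other 7 members passed with OGN in either fraction. Of the remaining subunits, Rela had log2 fold changes of 0.16 in Epcam+ cells and 0.06 in fibroblasts, Relb of -0.08 and 0.26, and Nfkb2 of -0.12 and -0.17. Nfkbia, often used as a readout of NF-kB activity, was at 0.14 ± 0.074 in Epcam+ cells and -0.05 ± 0.127 in fibroblasts. Nfkbiz was at -0.04 and -0.27, Bcl3 at 0.25 and -0.13, and Birc3 at 0.24 and 0.06. Their adjusted p values lay between 0.25 and 0.93.

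Whether OGN acted differently on the members in the 2 fractions was tested by the interaction of treatment and fraction over all 32 libraries. Mouse within fraction was in the model, and the pairing of the 2 fractions of a co-culture was not used. None of the 10 passed in edgeR, against 0.551% of all genes, and their values ran from -0.48 to 0.33. At an unadjusted p under 0.05 there were 4, and DESeq2 called none. Leaving out the EV-treated fibroblasts of mice 2 and 4 also gave 0 of 10, against 1.42% of all genes. The value for Tnfaip3, fibroblasts minus Epcam+ cells, was -0.48 ± 0.196 on the log2 scale (adjusted p = 0.52). The call of Tnfaip3 in Epcam+ cells and of Nfkb1 and Nfkbie in fibroblasts is thus not shown to belong to a single fraction.

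**Figure D2:**
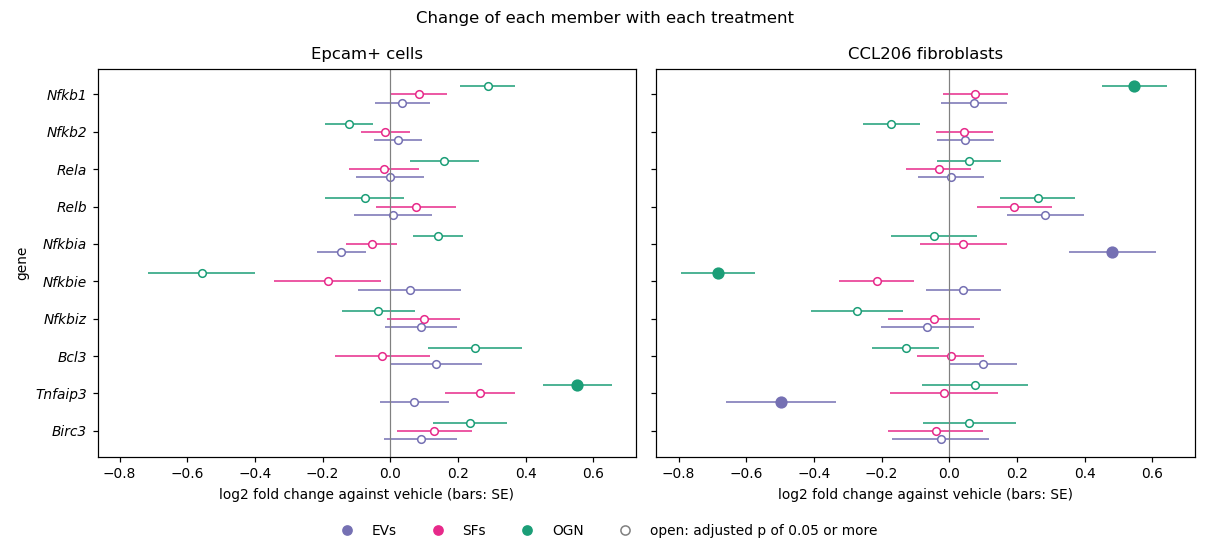
Log2 fold change of each member against vehicle with EVs, SFs and OGN, in Epcam+ cells and in CCL206 fibroblasts. Points are the estimates of the quasi-likelihood fit over the 16 libraries of a fraction, bars are 1 SE, and filled points have an adjusted p under 0.05: Tnfaip3 with OGN in Epcam+ cells, and Nfkb1 and Nfkbie with OGN and Nfkbia and Tnfaip3 with EVs in fibroblasts.

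SFs left no member past the test. In edgeR 0 of 10 were called in Epcam+ cells, against 0.23% of all genes, with 1 member at an unadjusted p under 0.05 and 0 called by DESeq2. In fibroblasts it was 0 of 10, against 0.0599% of all genes, with 0 at an unadjusted p under 0.05 and 0 by DESeq2. The largest values were a log2 fold change of 0.26 ± 0.104 for Tnfaip3 in Epcam+ cells (adjusted p = 0.53), higher in 3 of 4 mice, and of -0.21 ± 0.110 for Nfkbie in fibroblasts (adjusted p = 0.97). The other 9 members lay between -0.18 and 0.13 in Epcam+ cells and between -0.04 and 0.19 in fibroblasts. Without the EV-treated libraries of mice 2 and 4 the fibroblast comparison again called 0 members, against 0.637% of all genes. The interaction of SFs with fraction gave 0 of 10 in edgeR, against 0.0% of all genes, with 0 members at an unadjusted p under 0.05 and 0 by DESeq2, and values from -0.29 to 0.10, and again 0 of 10 without those libraries.

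EVs left no member past the test in Epcam+ cells either (0 of 10 in edgeR, against 0.888% of all genes, 0 at an unadjusted p under 0.05 and 0 by DESeq2). The log2 fold changes there lay between -0.14 for Nfkbia and 0.13 for Bcl3. In EV-treated fibroblasts 2 of 10 passed, against 36.0% of all genes. Without the libraries of mice 2 and 4 it was 0 of 10, against 5.48% of all genes, and without mouse 2 altogether 0 of 10, against 0.162%. Nfkbia was at 145, 166, 107 and 116 CPM with vehicle and at 157, 239, 135 and 211 CPM with EVs. The 2 high values are those of mice 2 and 4. The log2 fold change was 0.48 ± 0.129 (adjusted p = 0.012). Tnfaip3 was at 84.8, 97.4, 64.7 and 66.9 CPM with vehicle and at 58.1, 59.0, 66.7 and 35.5 CPM with EVs, lower in 3 of 4 mice, with a log2 fold change of -0.50 ± 0.163 (adjusted p = 0.028). The other 8 members lay between -0.06 for Nfkbiz and 0.28 for Relb.

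Both values were smaller without the 2 libraries that stood apart, and also with a trend over transcript length removed. Nfkbia has the shortest canonical transcript of the members, at 1578 nt, and Tnfaip3 the longest, at 6907 nt. The next shortest, Bcl3 at 2017 nt, had a log2 fold change of 0.10 in the main fit, and the next longest, Nfkb2, of 0.05. The part of transcript length in the 2 calls was not tested. Without these 2 libraries, from EV-treated fibroblasts of mice 2 and 4, the log2 fold change of Nfkbia was 0.16 (adjusted p = 0.29) and that of Tnfaip3 -0.24 (adjusted p = 0.37). With a trend over transcript length removed from each library they were 0.09 (adjusted p = 0.39) and -0.13 (adjusted p = 0.47). Nfkb2, at 6754 nt, became called at 0.43 (adjusted p = 0.012). As 23.7% of all genes were called in that setting, the call says little about Nfkb2. The interaction of EVs with fraction called Nfkbia (0.60 ± 0.147, adjusted p = 0.0083) and Tnfaip3 (-0.59 ± 0.200, adjusted p = 0.034), against 23.8% of all genes. Neither was called without those 2 libraries (0 of 10, against 0.279% of all genes) or with the trend removed (against 11.4%). The other 8 lay between -0.18 and 0.25.

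**Figure D3:**
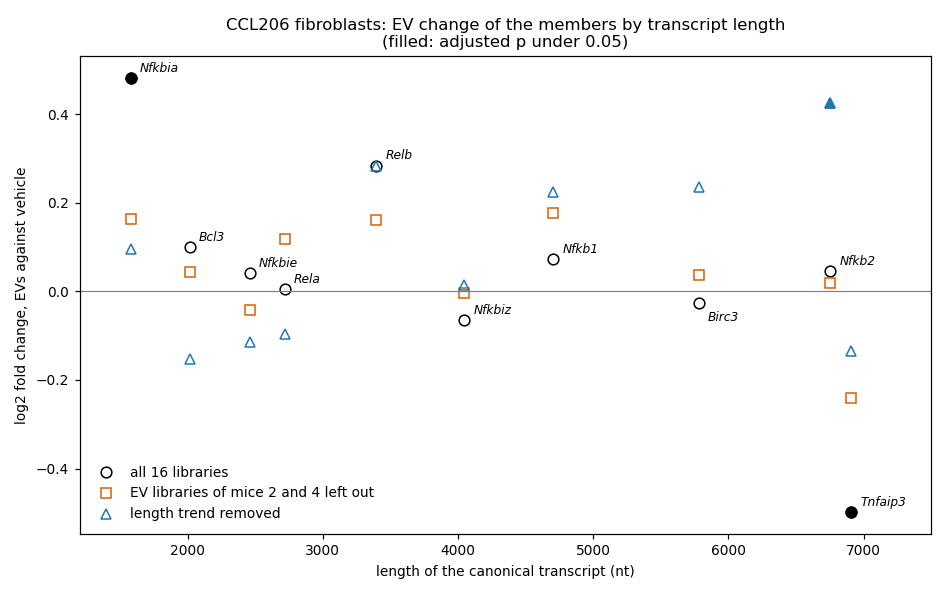
Log2 fold change of the 10 members with EVs against vehicle in CCL206 fibroblasts (vertical) by length of the canonical transcript in nt (horizontal). Black circles are from all 16 libraries of the fraction, orange squares are without the EV-treated libraries of mice 2 and 4, blue triangles are with the length trend removed, and filled symbols have an adjusted p under 0.05. The 2 called members, Nfkbia at 1578 nt and Tnfaip3 at 6907 nt, both move toward 0 in the other settings.

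OGN was also compared with SFs and with EVs, the treatments made from MRC5 medium. In fibroblasts 2 of 10 members differed between OGN and SFs, against 2.79% of all genes, and these were Nfkb1 (0.47 ± 0.097, adjusted p = 0.013) and Nfkbie (-0.47 ± 0.111, adjusted p = 0.032). Leaving out any 1 mouse left 0 or 1 called, against 0.666% to 1.97% of all genes. Without the EV-treated libraries of mice 2 and 4 there were 3 members called, Nfkb2 being the third (-0.21, adjusted p = 0.0478), against 9.82% of all genes. The other 8 lay between -0.23 and 0.10. Between OGN and EVs it was 4 of 10, against 37.6% of all genes: Nfkb1 (0.47 ± 0.098, adjusted p = 0.0032), Nfkbie (-0.72 ± 0.112, adjusted p = 0.00065), Tnfaip3 (0.57 ± 0.163, adjusted p = 0.014) and Nfkbia (-0.53 ± 0.129, adjusted p = 0.0072). The last pair was lost when the EV-treated libraries of mice 2 and 4 were left out, and Nfkb1 and Nfkbie were kept (2 of 10, against 13.2% of all genes). The other 6 lay between -0.23 and 0.08.

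In Epcam+ cells 0 of 10 members differed between OGN and SFs in edgeR, against 1.91% of all genes, with 4 at an unadjusted p under 0.05, 0 by DESeq2, and values between -0.37 for Nfkbie and 0.29 for Tnfaip3. Between OGN and EVs 3 of 10 differed, against 2.22% of all genes: Tnfaip3 (0.48 ± 0.099, adjusted p = 0.0069), Nfkbia (0.29 ± 0.073, adjusted p = 0.037) and Nfkbie (-0.61 ± 0.155, adjusted p = 0.035). All 3 calls were lost when the pairing by mouse was dropped, against 1.56% of all genes called. Leaving out any 1 mouse left 1 call, against 1.13% to 1.63%. The other 7 lay between -0.14 and 0.25.

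Over the 32 libraries, after the mean of each mouse and fraction was subtracted, Nfkb1 and Nfkbie had a Pearson correlation of -0.784, Nfkb1 and Nfkb2 of -0.689 and Nfkb2 and Nfkbie of 0.733. The highest value among the other pairs was 0.507, between Tnfaip3 and Birc3. These are descriptions over libraries that share treatments, and the OGN groups contribute to them.

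The rest of the pathway was followed in a list of 39 other adaptors, kinases, ubiquitin enzymes and inhibitors in the table, of 42 listed. With OGN, 3 rose and 0 fell in Epcam+ cells, against 2.7% of all genes called, with a list median of 0.06. In fibroblasts 3 rose and 4 fell, against 4.56%, with a median of 0.05. In both fractions those that rose were Zc3h12a, Tnip3 and Ikbke, regulators that act below the receptors. Zc3h12a, which encodes the RNase Regnase-1 that degrades inflammatory mRNAs, rose from 9.33 to 15.1 CPM (lowest and highest of 4) to 32.2 to 39.6 CPM in Epcam+ cells, a log2 fold change of 1.49 ± 0.18 (adjusted p = 9.8e-06), and by 1.11 ± 0.13 in fibroblasts (adjusted p = 4.3e-05). Tnip3, whose product binds A20, rose from 73.0 to 98.6 CPM to 147 to 184 CPM in Epcam+ cells (0.94 ± 0.091, adjusted p = 8.3e-07) and from 5.72 to 11.04 CPM to 31.3 to 43.2 CPM in fibroblasts (2.03 ± 0.21, adjusted p = 1.9e-05). Ikbke, an IKK-related kinase, rose by 0.51 ± 0.14 on the log2 scale in Epcam+ cells (adjusted p = 0.042) and by 0.97 ± 0.092 in fibroblasts (adjusted p = 6.9e-06). None of the OGN libraries overlapped the vehicle libraries for Zc3h12a and Tnip3.

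The 4 that fell in OGN-treated fibroblasts were Birc2 (cIAP1, -0.59 ± 0.10, adjusted p = 0.0019), Traf5 (-0.77 ± 0.15, adjusted p = 0.0048), Map3k14 (the NIK kinase of the non-canonical branch, -0.71 ± 0.16, adjusted p = 0.018) and Cyld (a deubiquitinase, -0.51 ± 0.14, adjusted p = 0.0498). With 1 mouse left out at a time, 1 or 2 genes of the list were called lower, where 2.02% to 3.51% of all genes were called. Without any EV-treated library 6 genes of the list were called higher and 4 lower with OGN in fibroblasts, against 15.1% of all genes. In edgeR 0 genes of this list were called with SFs in Epcam+ cells (7 at an unadjusted p under 0.05, 0 by DESeq2). The same was found with SFs in fibroblasts (2 at an unadjusted p under 0.05, 1 by DESeq2) and with EVs in Epcam+ cells (3 at an unadjusted p under 0.05, 1 by DESeq2). The shares of all genes called were 0.23%, 0.0599% and 0.888%, in that order. In fibroblasts treated with EVs 7 were called higher and 6 lower of 39, against 36.0% of all genes, led by Zc3h12a (0.70) and Nfkbib (0.68) and by Itch (-0.50) and Rel (-0.94). Without the libraries of mice 2 and 4 there were 2 of 39 called, both higher, a count near the 5.48% of all genes called there. These were Zc3h12a (0.74) and Tnip3 (0.86). Both were also called with the length trend removed, where 5 of 39 were called, against 23.7% of all genes.

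Of 16 receptors listed, 13 were in the table. In OGN-treated fibroblasts 2 of the 13 rose, against 4.56% of all genes called. Tlr2, the receptor for bacterial lipoproteins, rose from 1.67 to 3.14 CPM to 6.54 to 9.22 CPM (1.65 ± 0.23, adjusted p = 0.00035). Il1rap, the shared IL-1 receptor chain, was the other (1.34 ± 0.18, adjusted p = 0.00022). Without any EV-treated library 4 of the 13 were called, all higher, against 15.1% of all genes. Tlr2 held as few as 8 counts in an EV-treated fibroblast library. With at least 10 counts required in every library, 1 of 11 receptors was called, against 5.09% of all genes. In Epcam+ cells edgeR called 0 of 13, against 2.7% of all genes (1 at an unadjusted p under 0.05, 1 by DESeq2). In EV-treated fibroblasts Ltbr (0.45) and Il17rc (0.59) were called higher and Il1r1 (-0.41) lower. As 36.0% of all genes were called there, these 3 calls of 13 say little about the receptors. Without the libraries of mice 2 and 4, 0 receptors were called, against 5.48% of all genes. Of 16 ligands, 2 were in the table, and of these Tnfsf9 fell in OGN-treated fibroblasts (-0.59 ± 0.14, adjusted p = 0.022).

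Genes that NF-kB is known to induce formed a further list, of which 18 of 24 were in the table. With OGN in Epcam+ cells 10 rose and 0 fell, against 2.7% of all genes called, with a median log2 fold change of 0.42. Saa3, Lcn2, Cxcl5 and Ccl20 led them. In fibroblasts 9 rose and 2 fell (Csf1 and Vcam1), against 4.56% of all genes called, with a median of 0.59. Lcn2, Saa3, Cxcl5 and Sod2 led those that rose. Without any EV-treated library 10 were called higher and 2 lower in fibroblasts, against 15.1% of all genes. Lcn2, an iron-sequestering acute-phase protein, went from 26.1 to 44.1 CPM with vehicle to 353 to 504 CPM with OGN in Epcam+ cells, and from 8.14 to 13.8 CPM to 331 to 421 CPM in fibroblasts. Saa3, serum amyloid A3, went from 0.279 to 1.07 CPM to 96.2 to 125 CPM in Epcam+ cells and from 0.105 to 1.18 CPM to 241 to 322 CPM in fibroblasts. The response genes were chosen with earlier results of these data known, so their count is not independent evidence of a direction.

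Of the 18 response genes, 5 rose with SFs in Epcam+ cells, against 0.23% of all genes called, and 3 with SFs in fibroblasts, against 0.0599%. With EVs in Epcam+ cells 4 rose, against 0.888%. None fell in these 3 comparisons, and no member was called in them. Over the alternatives tried the count in Epcam+ cells ran from 2 to 6 with SFs and from 3 to 7 with EVs. The shares of all genes called ran from 0.0512% to 0.461% and from 0.0768% to 1.72%. The SF count in fibroblasts was 6 without the EV-treated libraries, against 0.924% of all genes called. It was 9 higher and 1 lower, against 2.63%, when the SF and vehicle libraries alone entered the fit. Lcn2, Saa3 and Cxcl5 were among the called genes in each of the 3, joined by C3 with SFs and with EVs in Epcam+ cells and by Cxcl1 with SFs in Epcam+ cells. In EV-treated fibroblasts 9 rose, led by Lcn2 (2.11) and Saa3 (4.73), and Csf1 fell (-0.41), against 36.0% of all genes called. Without the libraries of mice 2 and 4 there were 4 called, all higher (Lcn2, Saa3, Ccl20 and Steap4), against 5.48%. The NF-kB consensus motif was present in a window of 7 of the 14 response genes that had one, and of 9 of the 33 other pathway genes that had one.

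**Figure D4:**
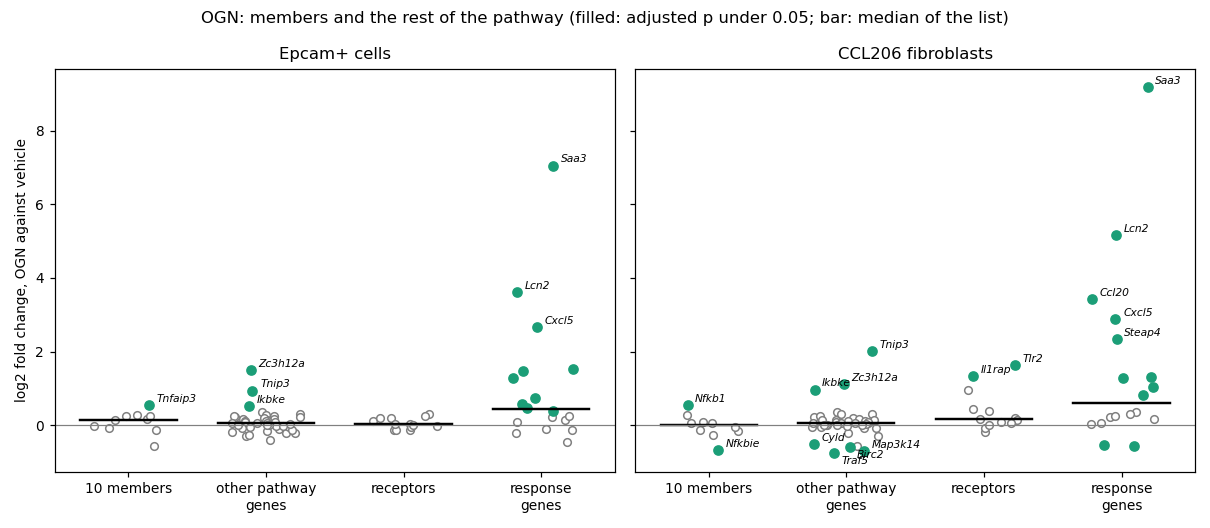
Log2 fold change with OGN against vehicle in Epcam+ cells (left) and CCL206 fibroblasts (right) for the 10 members, 39 other pathway genes, 13 receptors and 18 response genes. Each point is 1 gene, filled points have an adjusted p under 0.05, and the bar is the median of the list. The medians of the members and of the other pathway genes lie close to 0, where the left panel holds 1 called member and 3 called pathway genes and the right panel 2 and 7. Of the 18 response genes 10 (left) and 11 (right) are called, up to a log2 fold change of 9.19 for Saa3. Of all genes tested, 2.7% (left) and 4.56% (right) are called.

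Markers of other cells were set beside these values. Of 12 macrophage and leukocyte markers 3 were in the table (Cd68, Cd14 and Lyz2, the last of which AT2 cells also express), and Ptprc, Adgre1 and Csf1r were not, nor was any of 6 endothelial markers. Every gene of the table was counted in each library, so absence from it does not show that a gene was not expressed. The summed level of Cd68, Cd14 and Lyz2 was 464 to 514 CPM with vehicle and 716 to 871 CPM with OGN in Epcam+ cells. In fibroblasts it was 77.1 to 147 CPM with vehicle and 195 to 338 CPM with OGN. The summed level of 5 airway and basal cell markers in Epcam+ cells was 3140 to 4500 CPM with vehicle and 2050 to 3390 CPM with OGN. The macrophage and leukocyte sum with SFs was 553 to 654 CPM in Epcam+ cells and 103 to 169 CPM in the fibroblast fraction. With EVs it was 482 to 541 CPM and 135 to 184 CPM. The sum of the 9 fibroblast markers in Epcam+ cells was 3180 to 3770 CPM with EVs, without overlap with vehicle, 2610 to 3540 CPM with SFs and 2070 to 2600 CPM with OGN. Airway and basal markers in Epcam+ cells were at 2100 to 3160 CPM with EVs and 2170 to 3410 CPM with SFs. The part of these in the changes with OGN, SFs or EVs was not tested.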

How the data were processed

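RNA of Epcam+ cells and CCL206 fibroblasts resorted from organoids was sequenced in 32 libraries. The authors trimmed reads with Trimmomatic 0.30, aligned them and deposited raw counts per gene without normalization. The labels name the build GRCm39 and the study's methods name GRCm38 patch 6, and the aligner, the counting program, its strand setting and the annotation release are not given in the sources used here. Every gene of the deposited table was counted at least once in each library.

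Genes were filtered with filterByExpr and normalized by TMM in edgeR 4.0.16 (R 4.3.3). Treatments were compared by the quasi-likelihood F test over the 16 libraries of a fraction, with mouse and group in the model, interactions over all 32 libraries with mouse within fraction, and vehicle fractions over 8 libraries with mouse. P values were adjusted by Benjamini-Hochberg over all genes tested, and genes under 0.05 were called. SE was taken as the size of the log2 fold change over the root of the F statistic. The biological coefficient of variation was 0.120 in Epcam+ cells and 0.155 in fibroblasts. CPM per kb used the canonical GENCODE transcript length, matched for 98.3% of genes. The fit was run on simulated counts with known changes. These changes were larger than those of the members between treatments, and the simulated counts held no difference between mice. The run therefore does not show how well changes of the members' size are found. Pairing follows the mouse number of the labels, and residuals of OGN, SF or EV libraries correlated with vehicle at a mean r of 0.0879 to 0.224 within a mouse and -0.0702 to -0.0298 between mice. No pair of the 48 pairs of replicate libraries agreed within counting noise (lowest chi-square per degree of freedom 2.98). P values measure the spread between co-cultures.

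Alternatives were a fit without the mouse, DESeq2 1.42.0, RLE scaling (at most 0.0324 log2 units from TMM), only the libraries compared, no filter, at least 10 counts in every library, leaving out each mouse, removal of a lowess trend (span 0.5) over log2 transcript length, and leaving out EV-treated libraries. All 10 members are given in every comparison, by value or by the range of those not called. From the other lists up to 4 genes of smallest p in a direction were named with OGN and up to 2 with EVs or SFs, and further genes of short counts were named after their values were seen. A rule to name genes of like pattern applied to members called with OGN in both fractions and named none. The members and lists were chosen with earlier results of these data known. Promoter sequences and positions are those of RefSeq on GRCm38.p6. Plots were drawn with matplotlib.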

Additional observations from a re-analysis of the deposited data

Results flagged for a closer look

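The response to EVs differed between the fractions for Nfkbia and Tnfaip3 in the test of the interaction itself. The log2 difference, fibroblasts minus Epcam+ cells, was 0.60 for Nfkbia and -0.59 for Tnfaip3. For Nfkbia the log2 fold change was 0.48 in fibroblasts and -0.14 in Epcam+ cells, and for Tnfaip3 it was -0.50 and 0.07. The same test called 23.8% of all genes. Both interactions lost their call when the libraries of EV-treated fibroblasts of mice 2 and 4 were left out. In the 80 sets of 4 libraries (10 members in 8 groups), no library lay beyond Dixon's limit from the other 3.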

How the results depend on the processing

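Of the 24 member values called, 0 changed sign under any alternative, 10 kept the call under all of them and 14 lost it under at least 1. The 10 include Nfkb1 and Nfkbie with OGN in fibroblasts. Of the 116 not called, 43 changed sign under at least 1 alternative, the largest of them at an absolute log2 value of 0.23, and 10 were called under at least 1. Without the replicate block, which drops the pairing by mouse, 0 members were called with OGN in Epcam+ cells (1 with it), 0 for OGN against EVs in Epcam+ cells (3 with it), and 0 both for EVs in fibroblasts and for the EV interaction (2 each with it). The shares of all genes called without the block were 1.69%, 1.56%, 34.5% and 19.8%, in that order. No count of members called in the other comparisons moved by over 1.5 times without the block. DESeq2 called 3 members with OGN in Epcam+ cells, against 3.97% of all genes. With the length trend removed, 2 members were called with OGN in Epcam+ cells, 1 with EVs in fibroblasts and 0 in the EV interaction. The shares of all genes were 3.0%, 23.7% and 11.4%. In that setting the difference of Nfkbia between the vehicle fractions, which had not been called, turned to -0.0305 (adjusted p = 0.693).

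With only the libraries compared, 1 member was called for OGN against EVs in each fraction, against 1.87% of all genes in Epcam+ cells and 7.95% in fibroblasts. For OGN against SFs in fibroblasts 4 were called, against 11.2%. None were called for EVs in fibroblasts (3.34%) or for the EV interaction (7.16%). Without the EV-treated fibroblasts of mice 2 and 4, 0 were called for EVs in fibroblasts (5.48%) and for the EV interaction (0.279%), and 2 for OGN against EVs in fibroblasts (13.2%). Leaving out 1 mouse at a time gave 0 to 2 members with OGN in Epcam+ cells, against 1.23% to 2.29% of all genes. For OGN against EVs it gave 1 each time in Epcam+ cells (1.13% to 1.63%) and 2 to 4 in fibroblasts (5.43% to 41.2%). In fibroblasts it gave 0 to 2 for EVs (0.162% to 38.9%) and 0 to 1 for OGN against SFs (0.666% to 1.97%). The EV interaction gave 0 to 2 (2.21% to 25.2%). Why these counts moved was not tested, save that fewer libraries entered some of the fits. Depth bounds the low members: the lowest count was 27, for Nfkbie in an SF-treated Epcam+ library.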
